A study of Rattus norvegicus with 6 samples.

Results

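The adenylyl cyclases, the phosphodiesterases and the subunits of protein kinase A (PKA) were followed in cultured rat hippocampal neurons after knockdown of S-SCAM, the synaptic scaffold protein encoded by Magi2. The genes were taken by symbol, as every row named Adcy or Pde with a number or named for a PKA regulatory (Prkar) or catalytic (Prkac) subunit. This gave 35 of the 26405 genes in the count table, namely 10 adenylyl cyclases, 20 phosphodiesterases and 5 PKA subunits. Of these, 26 had enough counts to be tested (8 cyclases, 13 phosphodiesterases and 5 PKA subunits) among 13917 tested genes in all, and 9 did not. The S-SCAM KD group held 3 cultures that received lentivirus with an shRNA against all S-SCAM isoforms, and the Control group held 3 cultures that received lentivirus with an empty shRNA vector. In both groups hippocampi came from embryonic day 19 rats, the virus was added at day in vitro (DIV) 2, and RNA of the whole culture was isolated at DIV 9. The labels number the cultures of each group as biological replicates 1 to 3. The virus was added to the whole culture, which also held glia, so a lower level may reflect less RNA per cell or fewer cells of the type that makes it, and these cannot be told apart in bulk RNA. With an empty vector as the control, loss of S-SCAM also cannot be told apart from a response to the shRNA itself.

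Cyclic AMP (cAMP) is made from ATP by adenylyl cyclases, which stimulatory G proteins switch on and inhibitory G proteins switch off. Phosphodiesterases break cAMP and its relative cyclic GMP (cGMP) down. PKA is a complex of regulatory and catalytic subunits: cAMP binds the regulatory subunits, which then release the catalytic ones, and anchoring proteins (AKAPs) hold the complex near receptors and channels. In hippocampal neurons this pathway links calcium entry and neuromodulators to synaptic plasticity and to transcription through the factor CREB.

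S-SCAM KD cultures had less RNA of the RIIβ subunit Prkar2b, of the cyclases Adcy1, Adcy3 and Adcy7 and of the phosphodiesterases Pde2a and Pde8b than every Control culture, whereas of the 26 tested genes only the catalytic subunit Prkaca lay above every Control culture. Prkar2b stood at 51.6%, Adcy1 at 52.5% and Pde2a at 55.5% of the Control mean. Of the 26 tested genes, 17 had a log2 fold change below 0 and 9 above 0, with a median of -0.41. Over all 13917 tested genes the median was -0.024 and 52.4% were below 0. Without S-SCAM KD replicate 2 the median of these genes was -0.24, and without Control replicate 3 also -0.24.

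With edgeR's quasi-likelihood test, adjusted by Benjamini-Hochberg over all 13917 genes, 0 of the 26 passed the threshold of 0.05, and 0 of all genes did (0%). At an unadjusted p under 0.05, 7 of the 26 were lower and 0 were higher, which is 26.9% of them. Among all genes tested 10.8% had such a p, 7.14% being lower and 3.69% higher. The 7 were Prkar2b, Adcy1, Pde2a, Adcy7, Adcy3, Pde8b and Pde1a. The Wald test of DESeq2, which the study had used in an older release, called 1 of the 26 (Prkar2b), while it called 1.31% of all the genes to which it gave an adjusted p, 1.07% being lower. The study's own list of differentially expressed genes, from the older release, held Prkar2b and also Adcy1, Pde2a and Pde5a, all lower. The groups did not overlap in 6 genes that were lower and 1 that was higher, again 26.9% of the 26. Over all tested genes the groups did not overlap in 17.6%, lower in 10.2% and higher in 7.42%.

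These counts depended on single cultures. Without S-SCAM KD replicate 2, 3 of the 27 genes then tested had an unadjusted p under 0.05 (11.1%), against 6.48% of all genes, and these were Prkar2b, Adcy1 and Pde2a. Without Control replicate 1 they were 4 of 26 (15.4%), against 7.07% of all genes. Without Control replicate 2 they were 10 of 27 (37.0%), against 12.9% of all genes. Prkar2b, Adcy1 and Pde2a kept an unadjusted p under 0.05 in each of the 6 fits that left out 1 culture.

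**Figure D1:**
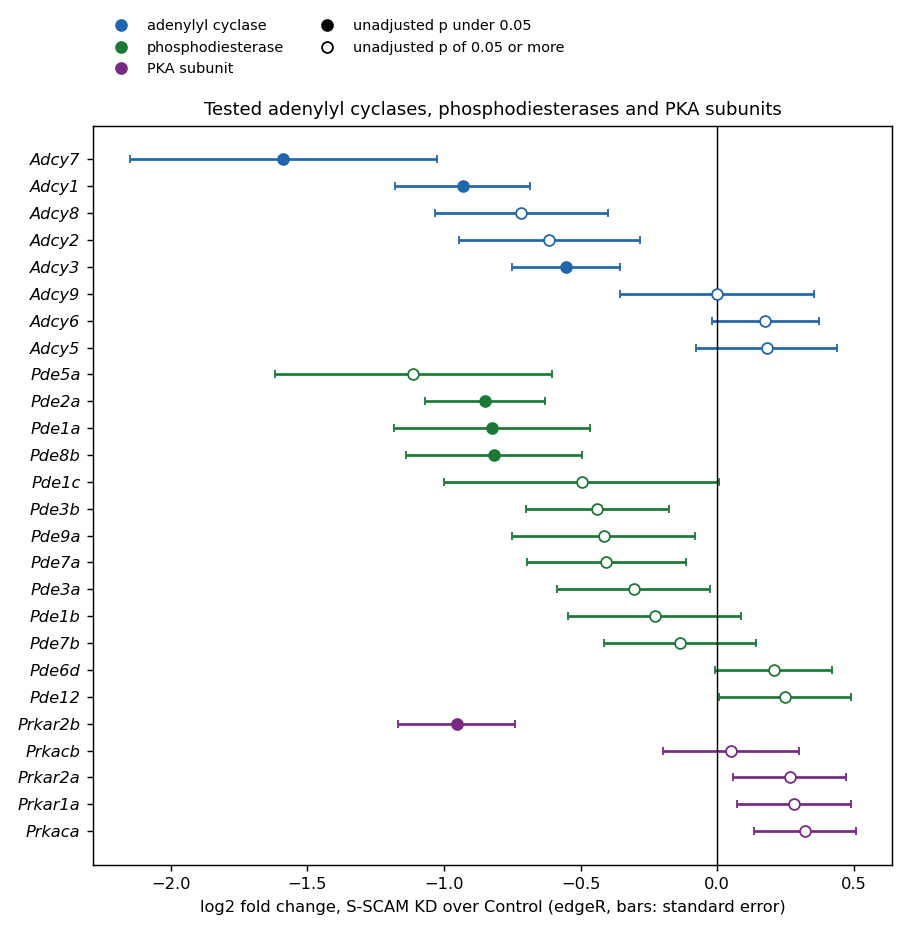
Log2 fold changes of S-SCAM KD over Control for the 26 tested genes, with bars of 1 standard error from edgeR (x axis), one row per gene and colours for adenylyl cyclases, phosphodiesterases and PKA subunits. Filled points mark the 7 genes with an unadjusted p under 0.05, all of them left of 0, while the largest positive value is 0.32 (Prkaca).

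Total counts per library ran between 13061705 and 29654651, and levels are given in CPM, counts divided by library sizes that were scaled by the TMM method. The libraries spread widely (biological coefficient of variation 0.317), and S-SCAM KD replicate 2 stood apart on the first principal component (40.3% of the variance), at 63.0 against 20.7 and -14.3 for the other knockdown cultures and -27.2 to -18.0 for the Control cultures. Magi2 itself was at 30.4, 21.1 and 40.4 CPM in S-SCAM KD replicates 1 to 3, against 82.8, 74.7 and 95.8 CPM in Control replicates 1 to 3. Its log2 fold change was -1.46 (edgeR adjusted p = 0.228, a value shared by 40 genes and the smallest reached). Neuronal markers were present in every library. Their summed level, over the 7 of 9 found in the table, lay between 3429 and 4712 CPM in S-SCAM KD and between 3294 and 5658 CPM in Control cultures. Of these 7, 5 were lower and 2 (Tubb3 and Nefl) higher. Only 1 of the 7, the synaptic vesicle fusion gene Snap25, had an unadjusted p under 0.05 and no overlap, at 65.8% of the Control mean. Of the principal neuron markers (6 of 9 in the table) 4 were lower and 2 (Slc17a7 and Emx1) higher. Only 1 of the 6, the transcription factor gene Neurod6, had an unadjusted p under 0.05 and no overlap, at 57.6% of the Control mean. Over all genes tested 10.8% had such a p and 17.6% had no overlap. Of the 10 tested interneuron markers 4 were lower and 6 higher, with Calb2 (lower) and Slc32a1 (higher) at such a p. The part of these marker differences in those of Prkar2b, Adcy1 and Pde2a was not tested. Microglial markers (11 of 13 in the table, 7 tested and all lower) summed to 6.78, 0.624 and 2.52 CPM in S-SCAM KD replicates 1 to 3, against 86.1, 12.8 and 6.79 CPM in Control replicates 1 to 3. C1qc, Cx3cr1, Itgam, P2ry12 and Tyrobp were each at 0 in at least 1 library and none of the 11 was at 0 in all knockdown cultures. Astrocyte markers (6 of 8 in the table, all tested) summed to between 1786 and 4775 CPM in S-SCAM KD and between 3482 and 8284 CPM in Control cultures, with all 6 lower and none at an unadjusted p under 0.05. Fibroblast markers (5 of 5 in the table) summed to between 12.1 and 54.1 CPM in S-SCAM KD cultures and between 67.0 and 82.8 CPM in Control cultures, and all 4 that were tested lay lower in every knockdown culture. Interferon-induced genes (15 of 15 in the table, 14 tested and all higher) summed to between 245 and 1160 CPM in S-SCAM KD and between 87.2 and 213.6 CPM in Control cultures. Of the 14, 13 had an unadjusted p under 0.05 with edgeR and DESeq2 called 9. The part of this difference in those of the genes described here was not tested.

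Start regions are shown for the gene that DESeq2 called (Prkar2b), for the cyclase with the smallest p (Adcy1) and for the gene that lay higher in every knockdown culture (Prkaca). RefSeq promoters (build GRCr8, each with 250 bases before and 50 after the start, read on the strand of the gene) were matched by symbol for 22 of the 35 genes, with 23 promoters since Pde2a had 2. They were searched on both strands for the cAMP response element that CREB binds (CRE, TGACGTCA), for its core (TGACG) and for the GC box of Sp-family factors (GGGCGG). The core is contained in the full CRE. In the sequences capitals mark the core or the GC box in either orientation, and overlapping matches run together.
Prkar2b, chr6:54381362-54381661, minus strand: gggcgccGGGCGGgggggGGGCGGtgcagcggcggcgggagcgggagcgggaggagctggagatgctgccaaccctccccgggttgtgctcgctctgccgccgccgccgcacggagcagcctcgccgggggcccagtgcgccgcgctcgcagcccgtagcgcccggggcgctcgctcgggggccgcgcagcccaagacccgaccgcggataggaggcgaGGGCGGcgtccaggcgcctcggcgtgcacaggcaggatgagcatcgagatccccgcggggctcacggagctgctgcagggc
Adcy1, chr14:86124869-86125168, plus strand: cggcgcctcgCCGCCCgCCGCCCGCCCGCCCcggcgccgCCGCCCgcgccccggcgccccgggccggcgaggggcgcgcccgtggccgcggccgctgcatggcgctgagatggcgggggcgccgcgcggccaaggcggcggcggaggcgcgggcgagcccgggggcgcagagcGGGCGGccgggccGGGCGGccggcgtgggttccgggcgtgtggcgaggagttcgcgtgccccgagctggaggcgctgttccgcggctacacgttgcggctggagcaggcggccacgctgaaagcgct
Prkaca, chr19:41083140-41083439, minus strand: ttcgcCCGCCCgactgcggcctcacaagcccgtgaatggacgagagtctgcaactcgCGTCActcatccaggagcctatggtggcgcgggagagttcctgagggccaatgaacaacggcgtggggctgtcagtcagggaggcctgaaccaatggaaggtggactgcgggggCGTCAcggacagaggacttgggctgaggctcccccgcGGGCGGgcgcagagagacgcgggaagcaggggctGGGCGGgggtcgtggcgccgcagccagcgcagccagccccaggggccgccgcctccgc

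The full CRE was found in 0 of the 23 promoters, against 1.83% of all 33469 promoters of that length. Its core was found in 5 of 23 (21.7%), against 21.2% of all promoters, and the GC box in 11 of 23 (47.8%), against 33.1%. Prkar2b held 3 GC boxes and no CRE core, Adcy1 held 7 GC boxes and no core, and Prkaca held 2 cores and 3 GC boxes. The absence of a match says only that these letters are not in the window searched.

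Among the PKA subunits, Prkar2b (ENSRNOG00000009079, chromosome 6 of rn5 from 59936129 to 59968013) was the only one with a negative log2 fold change. It encodes RIIβ, a regulatory subunit abundant in brain that AKAPs bind. It was at 167, 148 and 148 CPM in S-SCAM KD replicates 1 to 3, against 296, 237 and 364 CPM in Control replicates 1 to 3. Every knockdown culture thus lay below every Control culture, and the knockdown cultures lay closer together (154 ± 10.6 CPM) than the Control cultures (299 ± 63.2 CPM, SD, n = 3 each). The log2 fold change was -0.95 (standard error, SE, 0.21), with an edgeR adjusted p of 0.291 and a DESeq2 adjusted p of 0.0309. Leaving out 1 culture at a time gave log2 fold changes between -1.08 and -0.76 with edgeR. The DESeq2 adjusted p stayed under 0.05 without S-SCAM KD replicate 3 (0.0422) and without Control replicate 2 (0.0039). It was 0.124 without S-SCAM KD replicate 1, 0.157 without S-SCAM KD replicate 2, 0.157 without Control replicate 1 and 0.360 without Control replicate 3.

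The other regulatory subunits had fold changes on the other side of 0. Prkar1a (ENSRNOG00000049876, chromosome 10 from 97655261 to 97671804), the RIα subunit of the mostly soluble type I kinase and the PKA gene with the highest counts, was at 417, 512 and 345 CPM in S-SCAM KD cultures, against 352, 329 and 368 CPM in Control cultures. The groups overlapped, since S-SCAM KD replicate 3 lay within the Control values (log2 fold change 0.28 ± 0.21 SE, adjusted p = 0.660 with edgeR and 0.715 with DESeq2). Prkar2a, the RIIα subunit, averaged 88.8 ± 11.4 CPM in S-SCAM KD and 73.9 ± 12.7 CPM in Control cultures (log2 fold change 0.26, standard error 0.21).

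Of the catalytic subunits, Prkaca (Cα, ENSRNOG00000005257, chromosome 19 from 36073104 to 36096875) was at 222, 232 and 183 CPM in S-SCAM KD cultures, against 159, 173 and 179 CPM in Control cultures. Every knockdown culture lay above every Control culture, though S-SCAM KD replicate 3 and Control replicate 3 nearly met. The difference (log2 fold change 0.32, standard error 0.19) did not pass either test (edgeR adjusted p = 0.572, DESeq2 adjusted p = 0.608). Prkacb (Cβ) averaged 47.3 ± 14.4 CPM in S-SCAM KD and 45.7 ± 3.12 CPM in Control cultures. The fold change of Prkacb, 0.05 on the log2 scale, was -0.19 without S-SCAM KD replicate 2.

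Within each library, the counts of Prkar1a, Prkar2a and Prkar2b were set against their own sum, which needs no scaling between libraries. Prkar1b, which encodes a further regulatory subunit, had no row with its symbol and is not in these sums. Prkar2b held 24.9%, 19.5% and 25.9% of these counts in S-SCAM KD replicates 1 to 3, against 41.0%, 37.8% and 44.4% in Control replicates 1 to 3. The Wilson 95% interval of these Prkar2b shares reached at most 1.09 percentage points to either side, which covers counting error only. The mean share was 23.4% ± 3.45 in S-SCAM KD and 41.1% ± 3.31 in Control cultures (SD, n = 3 each). A two-sided exact permutation test gave p = 0.1, the smallest that 3 against 3 cultures allow (0.189 after Benjamini-Hochberg adjustment over the 17 shares computed). Prkar1a held 62.3%, 67.2% and 60.3% in S-SCAM KD cultures, against 48.7%, 52.5% and 45.0% in Control cultures. Prkar2a held 12.8%, 13.3% and 13.8% in S-SCAM KD cultures, against 10.3%, 9.74% and 10.6% in Control cultures. Because shares add up to the whole, a lower share of one subunit raises those of the others. The 2 catalytic subunits held 28.4%, 28.0% and 27.6% of the counts of the 5 matched PKA subunits in S-SCAM KD cultures, against 22.0%, 25.6% and 21.8% in Control cultures.

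**Figure D2:**
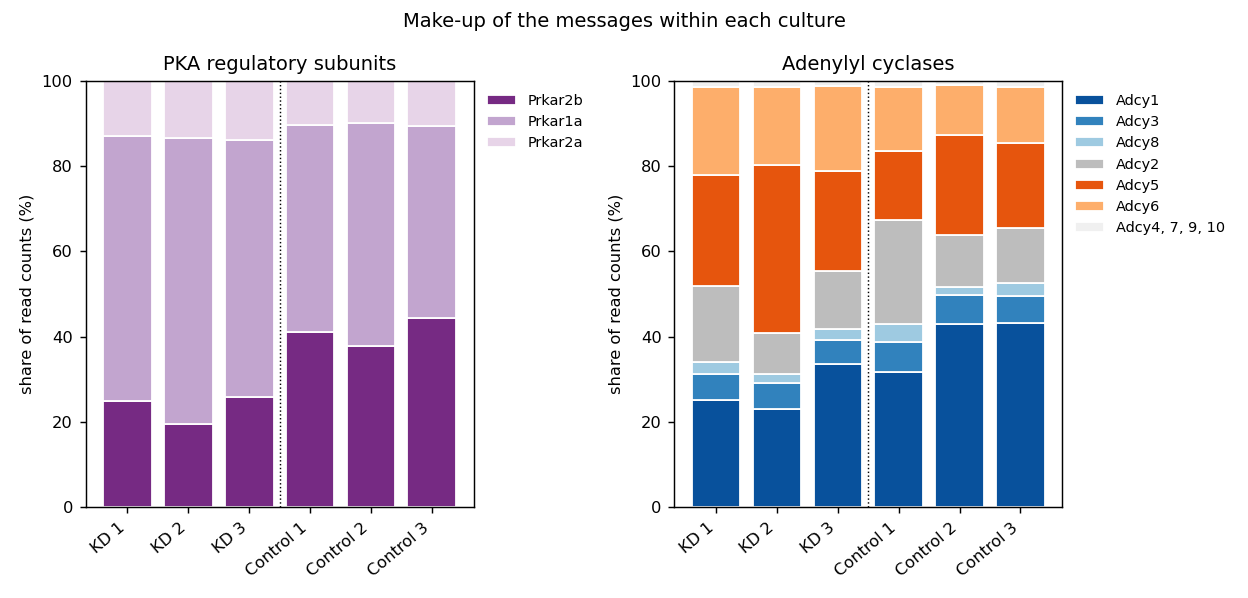
Share of read counts (y axis, percent) within each of the 6 cultures (x axis, S-SCAM KD left of Control), for the PKA regulatory subunits Prkar1a, Prkar2a and Prkar2b (left) and for the 10 adenylyl cyclases (right, Adcy4, Adcy7, Adcy9 and Adcy10 summed). Prkar2b takes 19.5% to 25.9% of regulatory subunit counts in S-SCAM KD and 37.8% to 44.4% in Control cultures, while Adcy5 and Adcy6 together take 43.3% to 57.6% of cyclase counts in S-SCAM KD and 31.1% to 35.2% in Control cultures.

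The adenylyl cyclases are described by how they are regulated. All 3 isoforms that calcium and calmodulin stimulate (Adcy1, Adcy3 and Adcy8) had negative log2 fold changes, 2 of them at an unadjusted p under 0.05. Both tested isoforms that G protein βγ subunits stimulate (Adcy2 and Adcy7) were negative too, 1 of them at such a p. Among all genes tested 10.8% had such a p, 7.14% being lower. Both isoforms that calcium inhibits (Adcy5 and Adcy6) had 0.18. Adcy1 (ENSRNOG00000008276, chromosome 14 from 80947153 to 81055801), the neuronal calcium-stimulated cyclase of hippocampal plasticity, had the highest mean CPM of the cyclases over all 6 cultures, though within the S-SCAM KD cultures the mean of Adcy5 was higher. It was at 141, 114 and 166 CPM in S-SCAM KD replicates 1 to 3. In Control replicates 1 to 3 it was at 198, 279 and 324 CPM, so that the groups did not overlap. The log2 fold change was -0.93 (standard error 0.25), with an edgeR adjusted p of 0.347 and a DESeq2 adjusted p of 0.0945. It lay between -1.11 and -0.74 when 1 culture was left out. DESeq2 called Adcy1 without S-SCAM KD replicate 3 (adjusted p = 0.0239) and without Control replicate 1 (0.0384), and the other 4 such fits gave adjusted p between 0.140 and 0.548.

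Adcy3 (ENSRNOG00000003999, chromosome 6 from 38378060 to 38454925), the cyclase of olfactory transduction that also marks the primary cilium of neurons, was at 34.7, 29.8 and 27.8 CPM in S-SCAM KD cultures, against 44.3, 44.1 and 47.0 CPM in Control cultures. Both groups were tight and did not overlap. This gave a log2 fold change of -0.55 with a standard error of 0.20 (adjusted p = 0.412 with edgeR and 0.318 with DESeq2). The unadjusted p of Adcy3 was under 0.05 in 2 of the 6 fits that left out 1 culture. Adcy8, a second calcium-stimulated cyclase of hippocampal neurons, averaged 12.6 ± 2.17 CPM in S-SCAM KD and 20.6 ± 7.12 CPM in Control cultures, with overlap (log2 fold change -0.72 ± 0.32 SE, adjusted p = 0.462 with edgeR).

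Adcy5 (ENSRNOG00000002229, chromosome 11 from 71787104 to 71933840), the cyclase with the largest positive fold change and best known from the striatum, was at 147, 194 and 116 CPM in S-SCAM KD cultures, against 100.3, 152 and 150.2 CPM in Control cultures. The groups overlapped widely (log2 fold change 0.18 ± 0.26 SE, adjusted p = 0.828 with edgeR and 0.868 with DESeq2). The value was 0.0027 without S-SCAM KD replicate 2. Adcy6 averaged 101.5 ± 13.0 CPM in S-SCAM KD and 89.8 ± 11.4 CPM in Control cultures (log2 fold change 0.18, standard error 0.20). In the table's coordinates Adcy6 overlaps Ddn, which encodes the postsynaptic protein dendrin and had a log2 fold change of -1.20, and since the library kit keeps no strand, reads in the overlap cannot be assigned with certainty.

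As a share of all cyclase counts in a library, the calcium-stimulated isoforms held 34.0%, 31.3% and 41.7% in S-SCAM KD cultures, against 42.9%, 51.7% and 52.6% in Control cultures. The calcium-inhibited isoforms held 46.9%, 57.6% and 43.3% in S-SCAM KD cultures, against 31.1%, 35.2% and 33.1% in Control cultures. Neither share overlapped between the groups, though S-SCAM KD replicate 3 and Control replicate 1 came within a few points of each other in the calcium-stimulated share. For each of these shares the exact permutation p was 0.1, the smallest possible here (0.189 after Benjamini-Hochberg adjustment over the 17 shares). Because shares add up to the whole, a lower share of other cyclases raises the calcium-inhibited share. The levels of Adcy5 and Adcy6 themselves overlapped between the groups (log2 fold change 0.18 each). Adcy1 alone held 25.1%, 23.1% and 33.6% in S-SCAM KD cultures and 31.7%, 43.0% and 43.2% in Control cultures, with overlap (exact permutation p = 0.2, two-sided). These are shares of counts, which also scale with transcript length, and so not of molecules.

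Of the cyclases that G protein βγ subunits stimulate, Adcy7 (ENSRNOG00000014776, chromosome 19 from 30730189 to 30752411), known from immune cells, was at 1.14, 0.485 and 0.354 CPM in S-SCAM KD replicates 1 to 3. In Control replicates 1 to 3 it was at 2.84, 1.80 and 1.22 CPM. The groups did not overlap by a narrow margin. Its log2 fold change of -1.59 was the lowest of the 26, with a wide standard error of 0.56 (edgeR adjusted p = 0.409, DESeq2 adjusted p = 0.246). It lay between -2.18 and -1.20 when 1 culture was left out, with an unadjusted p under 0.05 in 3 of 6 fits. In both groups Adcy7 had its highest value in replicate 1, where the microglial markers also had theirs, and the part of microglial RNA in the difference was not tested. Adcy2 was at 99.8, 47.9 and 67.8 CPM in S-SCAM KD cultures, against 154, 79.2 and 97.0 CPM in Control cultures (log2 fold change -0.61 ± 0.33 SE, adjusted p = 0.536 with edgeR). Astrocyte markers were likewise highest in replicate 1 of each group, and their part was not tested. Adcy9, a widely expressed cyclase, averaged 6.11 ± 0.63 CPM in S-SCAM KD and 6.07 ± 2.35 CPM in Control cultures, with a log2 fold change of 0.00036. Adcy4 and the soluble, bicarbonate-sensitive Adcy10 were under the filter, with at most 2 and 8 counts per library in S-SCAM KD and at most 6 and 9 in Control cultures.

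**Figure D3:**
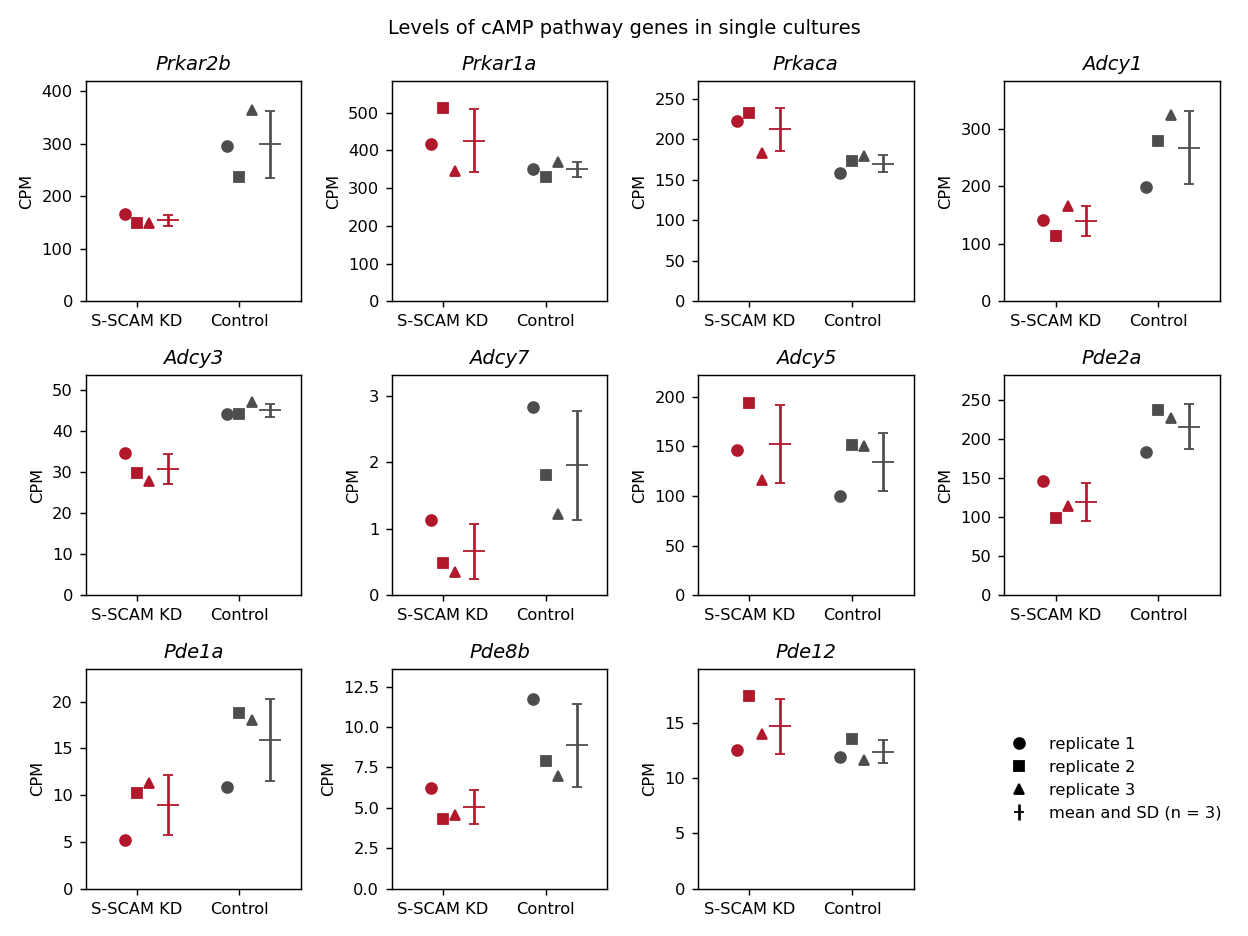
Levels in CPM on TMM-scaled library sizes (y axes start at 0) of 11 genes in each culture, S-SCAM KD left of Control, with a marker shape per replicate number and the mean ± SD of 3 cultures beside the points. Prkar2b, Adcy1, Adcy3, Adcy7, Pde2a and Pde8b show every S-SCAM KD culture below every Control culture and Prkaca every one above, whereas Prkar1a, Adcy5, Pde1a and Pde12 overlap.

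Of the 13 tested phosphodiesterases, 11 had a log2 fold change below 0, and 3 of these had an unadjusted p under 0.05 (Pde2a, Pde8b and Pde1a). That is 23.1% of them, against 10.8% of all genes tested (7.14% lower). The count of phosphodiesterases at such a p was 1 without S-SCAM KD replicate 2, against 6.48% of all genes. It was 5 without S-SCAM KD replicate 3 (17.1% of all genes) and 5 without Control replicate 2 (12.9% of all genes). Both counts of 5 include Pde8a, which passed the filter in these fits but is not among the 13. All 11 of the 13 that hydrolyse cyclic nucleotides were below 0, namely 6 that act on both cAMP and cGMP, 3 that prefer cAMP and 2 that prefer cGMP. The 2 above 0 are not cyclic nucleotide enzymes of this kind: Pde6d, which carries prenylated proteins, had 0.21, and Pde12, which removes adenylate tails from mitochondrial RNA, had 0.25. This split does not hold for the cyclic nucleotide enzymes that lack a symbol and so fall outside the 13. Of these, Pde4a (0.04) and Pde10a (0.29) lay above 0, and Pde4b (-0.27) and Pde4d (-0.15) below.

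Pde2a (ENSRNOG00000019560, chromosome 1 from 172724783 to 172816712), a dual enzyme that cGMP activates and that is abundant in forebrain neurons, had the highest counts of the phosphodiesterases. It was at 147, 98.9 and 114 CPM in S-SCAM KD replicates 1 to 3, against 183, 237.6 and 227 CPM in Control replicates 1 to 3. The groups did not overlap. The log2 fold change was -0.85 (standard error 0.22), with an edgeR adjusted p of 0.332 and a DESeq2 adjusted p of 0.0894. When 1 culture was left out it lay between -0.997 and -0.70. Pde2a held 50.1%, 45.9% and 40.5% of all counts of the cyclic nucleotide phosphodiesterases that carry a symbol in S-SCAM KD cultures, against 46.3%, 60.7% and 52.0% in Control cultures, and these shares overlapped.

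Among the calmodulin-dependent PDE1 enzymes, Pde1a (ENSRNOG00000006154, chromosome 3 from 73364538 to 73820966) was at 5.26, 10.3 and 11.3 CPM in S-SCAM KD cultures, against 10.9, 18.8 and 18.0 CPM in Control cultures. The groups overlapped only by S-SCAM KD replicate 3 and Control replicate 1 (log2 fold change -0.82 ± 0.36 SE, adjusted p = 0.456 with edgeR and 0.387 with DESeq2). Pde1b averaged 50.9 ± 18.6 CPM in S-SCAM KD and 59.6 ± 13.7 CPM in Control cultures. The log2 value of Pde1b, -0.23, was 0.078 without S-SCAM KD replicate 2, and its span overlaps Ppp1r1a in the table. Pde1c averaged 3.98 ± 2.95 CPM in S-SCAM KD and 5.60 ± 0.75 CPM in Control cultures. The PDE3 enzymes, which cGMP inhibits, had log2 fold changes of -0.31 (Pde3a) and -0.44 (Pde3b), with standard errors of 0.28 and 0.26.

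Pde8b (ENSRNOG00000010280, chromosome 2 from 43879335 to 43984030), a high-affinity enzyme for cAMP, was at 6.23, 4.33 and 4.56 CPM in S-SCAM KD cultures, against 11.8, 7.88 and 6.95 CPM in Control cultures. The groups did not overlap, with S-SCAM KD replicate 1 just below Control replicate 3 (log2 fold change -0.82 ± 0.32 SE, adjusted p = 0.427 with edgeR and 0.311 with DESeq2). The unadjusted p of Pde8b was under 0.05 in 3 of the 6 fits that left out 1 culture, and that of Pde1a in 2. The cAMP-specific Pde7a averaged 21.8 ± 4.42 CPM in S-SCAM KD and 28.9 ± 9.34 CPM in Control cultures, and Pde7b averaged 5.17 ± 0.43 CPM in S-SCAM KD and 5.69 ± 0.34 CPM in Control cultures. Of the cGMP-specific enzymes, Pde5a, known from smooth muscle, was at 6.45, 2.46 and 9.21 CPM in S-SCAM KD cultures, against 17.2, 7.05 and 14.7 CPM in Control cultures. The groups overlapped, since S-SCAM KD replicate 3 lay above Control replicate 2. The log2 fold change of Pde5a was -1.11 with a standard error of 0.51 (adjusted p = 0.474 with edgeR and 0.352 with DESeq2). The fibroblast markers were lower in the same cultures, and their part was not tested. Pde9a averaged 11.7 ± 2.25 CPM in S-SCAM KD and 15.6 ± 5.70 CPM in Control cultures.

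Pde6d averaged 77.5 ± 16.5 CPM in S-SCAM KD and 67.2 ± 6.20 CPM in Control cultures. Pde12 (ENSRNOG00000013264, chromosome 16 from 2332374 to 2343389) was at 12.5, 17.4 and 14.0 CPM in S-SCAM KD cultures, against 11.9, 13.5 and 11.6 CPM in Control cultures. The groups overlapped (log2 fold change 0.25 ± 0.24 SE, adjusted p = 0.736 with edgeR and 0.773 with DESeq2). The photoreceptor genes Pde6a, Pde6b, Pde6c, Pde6g and Pde6h, together with Pde4c and Pde8a, were under the filter, and none reached more than 10 counts in an S-SCAM KD library or 15 in a Control library.

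The table gives no symbol for Pde4a, Pde4b, Pde4d and Pde10a, which are named in its descriptions and so lay outside the rule. Pde4 enzymes are cAMP-specific and Pde10a acts on both cyclic nucleotides. Their log2 fold changes were 0.04 (Pde4a), -0.27 (Pde4b), -0.15 (Pde4d) and 0.29 (Pde10a), and a second row with a 4D description (ENSRNOG00000047236) had -0.21. All of these had an unadjusted p over 0.05 and groups that overlapped. No row carried the symbol Prkar1b or Pde11a, so these genes, though within the rule, were not analysed here.

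Around these enzymes, a list of G proteins, the ligand PACAP and its receptor, AKAPs, PKA inhibitors, Epac proteins, the CREB arm, guanylyl cyclases, cGMP kinases, the phosphatase inhibitors Ppp1r1a and Ppp1r1b, the PDE4-binding protein Pde4dip and, again, Pde10a had 41 tested rows, of which 29 had a log2 fold change below 0 and 12 above 0 (median -0.23). At an unadjusted p under 0.05, 5 were lower and 0 higher (12.2%, near the 10.8% of all genes), and 8 were lower and 1 higher without overlap of the groups (22.0%, beside 17.6% of all genes). The edgeR test called 0 of the 41 and DESeq2 called 1. That gene was Akap7, which encodes an anchor that binds RII subunits, at 49.6, 30.4 and 51.9 CPM in S-SCAM KD cultures, against 91.1, 89.4 and 93.7 CPM in Control cultures. The log2 fold change of Akap7 was -1.06, with a standard error of 0.24 (adjusted p = 0.291 with edgeR and 0.0272 with DESeq2). The DESeq2 adjusted p was 0.0819 when S-SCAM KD replicate 1 was left out, 0.150 when Control replicate 1 was and 0.298 when Control replicate 3 was, and stayed under 0.05 in the other 3 fits that left out 1 culture.

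The other 4 with an unadjusted p under 0.05 lay below every Control culture too. Pkia, an inhibitor protein that binds the free catalytic subunit, was at 109, 149.9 and 165 CPM in S-SCAM KD cultures, against 206, 285 and 272 CPM in Control cultures (log2 fold change -0.85 ± 0.23 SE, adjusted p = 0.347 with edgeR). Gucy1a3, a subunit of the guanylyl cyclase that nitric oxide activates, was at 126, 114 and 91.3 CPM in S-SCAM KD cultures, against 195, 168 and 224 CPM in Control cultures (log2 fold change -0.83, standard error 0.21). The study's own list of differentially expressed genes held Gucy1a3 as well as Akap7. Creb1, the transcription factor that PKA phosphorylates, was at 7.70, 9.28 and 10.1 CPM in S-SCAM KD cultures, against 14.6, 14.3 and 13.7 CPM in Control cultures (log2 fold change -0.65, standard error 0.24). Npr1, a receptor guanylyl cyclase for natriuretic peptides, was at 2.66, 1.04 and 3.63 CPM in S-SCAM KD cultures, against 7.73, 3.86 and 4.66 CPM in Control cultures. S-SCAM KD replicate 3 and Control replicate 2 nearly met (log2 fold change -1.16, standard error 0.50, adjusted p = 0.453 with edgeR and 0.327 with DESeq2).

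Genes that CREB is known to activate were read as a further list. Of the CREB targets Fos, Junb, Egr1, Nr4a1, Nr4a2, Nr4a3, Per1, Bdnf, Sik1 and Dusp1, 6 had a log2 fold change below 0 and 4 above 0, and 0 of the 10 had an unadjusted p under 0.05 with edgeR or were called by DESeq2. Over all genes tested 52.4% were below 0 and 10.8% had such a p, and DESeq2 called 1.31%. A list of 10 genes is too short for these counts to be told apart from those shares. The log2 fold changes of the 10 ran between -0.47 (Nr4a3) and 0.46 (Junb).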

How the data were processed

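RNA of 6 rat hippocampal cultures was grouped by the condition in the labels, 3 S-SCAM KD and 3 Control. Per the methods and labels, the authors used the TruSeq RNA Sample Prep Kit v2, single-end reads of 50 bases, CASAVA 1.8.2, FastQC 0.10.0, STAR 2.3.0 on rn5, SAMtools 1.2, HTSeq 0.6 and DESeq2 1.8.1. The strand and overlap settings of HTSeq and the Ensembl release are not given in the sources used here. The control was an empty shRNA vector in the methods and labels but a control shRNA in the legend of a figure.

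The deposited values are raw counts per Ensembl gene, which the authors did not normalize. The table gives gene spans with introns and no transcript length, so a rank of genes by CPM, used only to choose which to describe, is one of counts and not of transcript abundance. Total counts between 13061705 and 29654651 set the precision: 3 counts correspond to between 0.104 and 0.246 CPM.

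In R 4.3.3, edgeR 4.0.16 (TMM, filterByExpr with a minimum of 10 counts, quasi-likelihood test, condition alone) tested 13917 genes, with Benjamini-Hochberg adjustment and a threshold of 0.05. DESeq2 1.42.0 (Wald test) was the second test and gave an adjusted p to 14832 genes. Standard errors (SE) are the log2 fold change divided by the root of the F statistic. CPM use TMM-scaled library sizes. In simulated counts of 13917 genes, 100 genes each were altered by 1 and by 2 on the log2 scale. The edgeR test found 16 and 89 of them, with 4 false calls, and DESeq2 found 27 and 92, with 15 false calls. Alternatives were RLE size factors, no filter, a stricter filter (10 counts or more in all libraries), leaving out each library and a replicate block.

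Cell type and interferon markers aside, values of single cultures are given for genes with an unadjusted edgeR p under 0.05 or a DESeq2 call. In each of the 3 kinds they are also given for the gene with the highest mean CPM and the gene with the largest positive log2 fold change. Those of Adcy2 and Pde5a were added after their values were seen. The genes, lists and tests were chosen with earlier results of these data known.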

Additional observations from a re-analysis of the deposited data

How the results depend on the processing

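The deposited columns carry the numbers 12, 29 and 5 in both groups for replicates 1 to 3, and no source used here says whether these mark shared preparations. Deviations of same-numbered cultures correlated at 0.61, 0.097 and -0.13, so the data alone do not settle whether the numbers pair the cultures. With the number as a replicate block, edgeR called 0 genes, and DESeq2 called 294 genes in all and 1 of those described. In edgeR with the block, 10 of the tested genes described had an unadjusted p under 0.05 (7 without the block), and 5 of these were cyclases (3 without). No share over all genes is given for this fit. The added genes were Adcy2, Adcy8 and Pde5a. Each was lower in all 3 same-numbered pairs, but so were Pde1b, Pde3a and Pde3b, whose unadjusted edgeR p with the block was over 0.05. Without a filter on low counts edgeR called 8 genes in all and 0 of those described. In place of edgeR's 0, DESeq2 called 195 genes in all and 1 of those described (Prkar2b, log2 fold change -0.93).

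Leaving out 1 library at a time gave 0 to 1 genes called by edgeR and 47 to 742 called by DESeq2, with 0 to 3 of those described called by DESeq2. Unadjusted p under 0.05 then held for 3 to 10 of the 26 or 27 genes then tested, while 6.48% to 17.1% of all genes had such a p. By kind, 1 to 4 cyclases and 1 to 5 phosphodiesterases had such a p, the 5 including Pde8a, as did 3 to 8 other pathway genes. The groups did not overlap in 8 to 15, which rises with fewer libraries, and the median log2 fold change lay between -0.55 and -0.24. Directions reversed for Adcy9 (-0.016 under the filter of at least 10 counts in every library, and between -0.22 and 0.35 without 1 library), Pde1b (0.078 without S-SCAM KD replicate 2, and between -0.41 and 0.078 without 1 library) and Prkacb (-0.19 without S-SCAM KD replicate 2, and between -0.19 and 0.22 without 1 library). The cause was not tested. All other tested genes of the 26 kept their direction under every alternative run. With 3 libraries a group, a log2 fold change of 1 was recovered seldom even in simulated data with a single dispersion. An adjusted p over the threshold thus does not show that levels were alike.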
